A study of Mus musculus with 2 samples.

Results

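Ribosome biogenesis factors are the nucleolar and nuclear proteins that transcribe, modify, cut and fold ribosomal RNA and export the new subunits. The set described here was a list of 40 genes chosen by function: the cores of the small nucleolar ribonucleoproteins (snoRNPs), nucleolar processing factors and export factors. A value was taken for 39 of the 40, out of 19938 genes with a transcript cluster of their own, and Noc2l was not analysed here. A transcript cluster is the set of probes that the array summarises into 1 gene-level value. Where a gene had several clusters, the one with the highest mean was used, which applied to 3 of the 39.

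The samples were naive-enriched CD4 T cells of mouse spleen, sorted on high CD4 and T cell receptor beta with low surface CD44. One sample came from Taf7 knockout cells, in which a Cre transgene named 8EIII-cre had acted on a floxed Taf7 allele opposite a null allele. The other came from heterozygous cells with the same floxed and null alleles and no Cre, so that the null allele was shared by both. The strain background of both was a C57/BL6 and 129 mix. The sources used here give neither the element that drives the Cre, nor the age of the mice, nor the number of animals behind each sample. Taf7 encodes a subunit of TFIID, the complex that positions RNA polymerase II at promoters.

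There was 1 array per genotype, so no difference below has a replicate check, no test between the genotypes was possible, and the small number of arrays sets the precision throughout. Values are log2 signals as deposited. Where a pair of values is given, the heterozygote comes first and the knockout second, and a difference is always knockout minus heterozygote. Taf7 itself was at 8.34 and 7.79. The sources used here do not place its probes inside or outside the deleted part. Of the 12 CD4 T cell markers measured, all were above the filter on low values, a mean signal of 7.71, the median of all rows, with Cd4 at 12.99 and 12.77 and Cd3e at 13.49 and 13.50. In bulk RNA, fewer cells of a type and less RNA per cell cannot be told apart.

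In mammalian cells ribosome synthesis begins in the nucleolus, where RNA polymerase I copies the ribosomal DNA into 1 long precursor. Guide RNAs held in box C/D and box H/ACA snoRNPs direct its methylation and pseudouridylation, and the small subunit processome and a series of large subunit particles cut and fold it. Naive T cells keep this programme low and raise it when they are activated, under control that includes the transcription factor MYC.

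Promoter stretches are shown for 5 members, taken from RefSeq (GRCm38.p6) and ending at the base before the annotated transcript start, chosen from members with low, near-0 and higher differences. Ltv1 and Brix1 had the lowest differences of the set, Utp18 the next, Nmd3 one close to 0 and Nop2 one above 0. Capitals mark CACGTG, the palindromic E-box bound by MYC and related factors, and CGGAAG on either strand, a core sequence of ETS factor sites. No marked motif overlaps another.
Ltv1 (chr10:13193138-13193257, minus strand): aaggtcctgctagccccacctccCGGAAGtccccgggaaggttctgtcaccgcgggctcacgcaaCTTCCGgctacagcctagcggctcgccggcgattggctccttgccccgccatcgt
Brix1 (chr15:10485938-10486057, minus strand): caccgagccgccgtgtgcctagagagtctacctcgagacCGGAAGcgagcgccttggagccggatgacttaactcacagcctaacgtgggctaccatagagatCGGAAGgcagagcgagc
Utp18 (chr11:93885767-93885886, minus strand): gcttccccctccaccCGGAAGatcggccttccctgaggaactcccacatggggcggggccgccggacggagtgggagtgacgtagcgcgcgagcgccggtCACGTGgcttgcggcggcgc
Nmd3 (chr3:69721935-69722054, plus strand): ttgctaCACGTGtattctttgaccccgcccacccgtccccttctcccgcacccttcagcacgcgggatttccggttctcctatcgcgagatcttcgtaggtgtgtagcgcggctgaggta
Nop2 (chr6:125131763-125131882, plus strand): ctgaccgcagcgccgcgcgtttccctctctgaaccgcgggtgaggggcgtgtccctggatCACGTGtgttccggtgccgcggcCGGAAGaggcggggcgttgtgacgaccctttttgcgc

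The members were somewhat lower in the knockout sample as a set, and every single difference was small. Of 39, 33 were lower and 6 higher, with a median difference of -0.15, or 1.11-fold lower. Among the 10457 genes above the filter, 59.1% were lower, 40.9% were higher and the median was -0.05. The 25th and 75th percentiles of the member differences were -0.28 and -0.03, against -0.20 and 0.10 for all genes. All 39 members were above the filter.

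No member differed by 1.5-fold, a log2 difference of 0.58, while 3.17% of all genes were lower and 0.449% higher by that much. At 1.2-fold, a log2 difference of 0.26, 11 members (28.2%) were lower against 18.5% of all genes. None was higher by 1.2-fold, against 8.32% of all genes. Rrp1b, at -0.27, lay just inside that size and Rrs1, at -0.25, just outside it.

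Part of this contrast was shared by genes of like signal, since the difference between the arrays changed with the mean. The 6739 genes within the members' range of mean signal, 8.86 to 11.97, had a median of -0.08, and 67.1% of them were lower. In that range 19.9% were lower by 1.2-fold and 4.13% higher. With a smooth trend on the mean removed, 25 members were lower and 14 higher, against 50.8% of all genes lower, and the members' median was -0.06. The count lower by 1.2-fold was then 5, a share of 12.8% that lay below the 14.2% of all genes, and 2 were higher (5.13%) against 8.25%. After centring on the median difference of all genes, 26 members were lower and 13 higher, against 50% lower, and 7 were lower by 1.2-fold (17.9%) against 14.1%, with 1 higher (2.56%) against 12.3%. Quantile normalization gave 25 members lower against 48.2% of all genes, 5 lower by 1.2-fold (12.8%) against 13.4% and 2 higher against 9.93%. The share of members lower by 1.2-fold therefore exceeded the background on the deposited scale and after centring, and not after removal of the trend or quantile normalization.

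**Figure D1:**
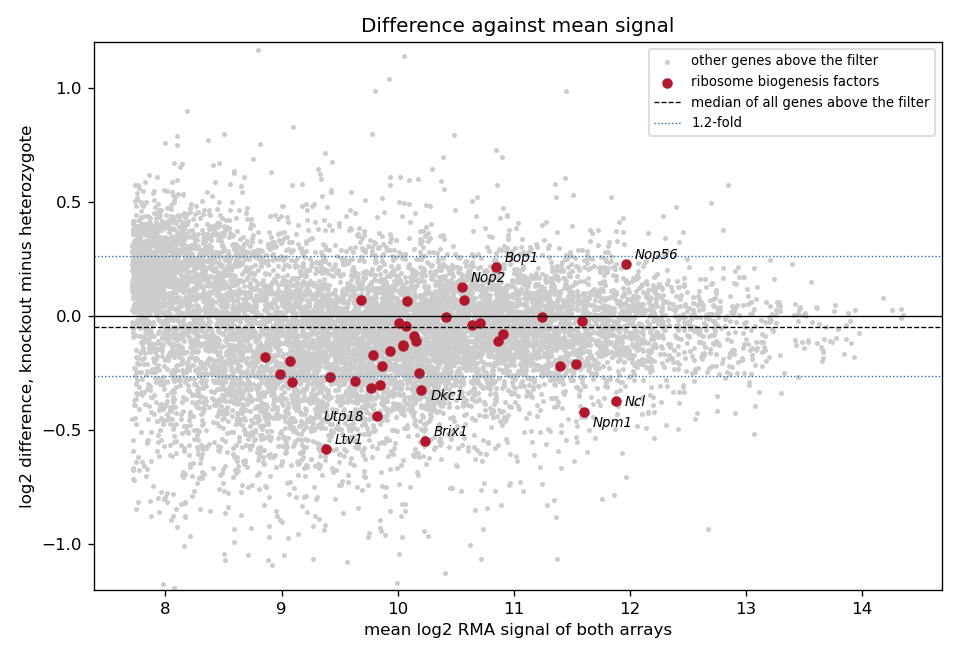
Log2 difference (knockout minus heterozygote, vertical axis) against the mean log2 signal of both arrays (horizontal axis) for every gene above the filter, 1 point per gene, with the 39 members in red. The members lie between -0.58 and 0.23, mostly below the 0 line; 18 genes beyond 1.2 on the log2 scale are not drawn.

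Differences are set beside a yardstick for single genes, the robust SD of the 500 genes of nearest mean signal, which is not a replicate error. By that measure 9 members (23.1%) lay below the median of such genes by more than that SD, against 18.2% of all genes. They were Ltv1, Brix1, Utp18, Npm1, Ncl, Dkc1, Utp20, Nop58 and Ddx21. The 3 members further above it (7.69%), against 14% of all genes, were Nop2, Bop1 and Nop56.

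The box C/D snoRNP core, which carries out 2′-O-methylation of ribosomal RNA, was split. Nop56, a scaffold of the particle, was the highest of all members: its signal was 11.86 and 12.08, a difference of 0.23 or 1.17-fold. Nop58, the scaffold that sits opposite it in the same particle, was at 9.997 and 9.695, a difference of -0.30 or 1.23-fold lower. Fbl, the methyltransferase, was at 10.92 and 10.81, a difference of -0.11. Its second cluster was at -0.10. The paired scaffolds thus differed in opposite directions, Nop56 above and Nop58 below the heterozygote, on the deposited scale and under every scaling tried.

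In the box H/ACA core, which makes pseudouridine, all 4 members were lower on the deposited scale, by unequal amounts. Dkc1, the pseudouridine synthase dyskerin, was at 10.36 and 10.04, a difference of -0.32 or 1.25-fold lower. Gar1, which helps product release, was at 10.02 and 9.86. Nhp2, at 10.09 and 10.05, and Nop10, at 11.60 and 11.58, both small core proteins, differed least. The signs of Nhp2 and Nop10 turned after centring, trend removal or quantile normalization, so only Dkc1 and Gar1 were lower under every scaling. The median of the 4 was -0.10.

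The abundant nucleolar proteins and the ribosomal DNA factor formed the lowest role by median, -0.22, with 4 of 5 lower. Npm1, a nucleolar chaperone that organises the granular layer of the nucleolus, was at 11.82 and 11.40, a difference of -0.42 or 1.34-fold lower. Ncl, nucleolin, which binds the precursor RNA, was at 12.07 and 11.70, a difference of -0.37 or 1.29-fold lower. Both lay among the lowest 10.3% of genes above the filter.

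Ddx21, an RNA helicase that couples polymerase I output to processing, was at 11.51 and 11.29, a difference of -0.22. Ubtf, the factor that keeps ribosomal DNA open for RNA polymerase I, was at 11.64 and 11.43, a difference of -0.21. Nolc1, a chaperone of snoRNPs, was the exception at 10.54 and 10.61, a difference of 0.07. All 5 kept their sign under every scaling tried, and the median of the role was -0.17 after centring and after removal of the trend.

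Small subunit factors held the lowest member of the set. Ltv1, which takes part in late assembly and export of the 40S particle, was at 9.68 and 9.09 (transcript cluster 10367931). Its difference of -0.58 was 1.497-fold lower, just short of the 1.5-fold size, and lay at percentile 3.21 of all genes above the filter. Utp18, a WD-repeat protein of the processome, was at 10.04 and 9.60, a difference of -0.44 or 1.35-fold lower. Utp20, a large processome scaffold, was at 9.93 and 9.62, a difference of -0.32. Of the 14 members in this role 12 (85.7%) were lower and 2 higher, against 67.1% of genes in the members' range of signal. The median was -0.11. By 1.2-fold 3 (21.4%) were lower, a share near the 18.5% of all genes. With the trend removed or with quantile normalization, 8 were lower and 6 higher, against 50.8% and 48.2% of all genes lower.

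The processome subcomplex that joins the precursor first, while it is still being transcribed, was flatter. Its 5 members, Utp4, Utp15, Wdr43, Wdr75 and Heatr1, had a median of -0.08. Utp15 was at 9.98 and 9.76, a difference of -0.22, and Wdr75 was at 10.11 and 9.98, a difference of -0.13. Wdr43 was at 10.94 and 10.87, a difference of -0.08. Heatr1, at 10.41 on both arrays, and Utp4, at 11.24 on both, hardly differed, and their signs turned with centring, trend removal or quantile normalization.

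The other small subunit members spread on both sides of 0. Tsr1, a GTPase-like factor of late 40S maturation, was at 10.31 and 10.06, a difference of -0.25, and Rrp12, an export factor, was at 9.17 and 8.98. Nop14 was at 10.18 and 10.09, a difference of -0.09. Rrp9, a U3 snoRNP protein, was at 10.02 and 9.99. Both turned sign with the trend removed and with quantile normalization, and Rrp9 also with centring. Bysl, at 9.65 and 9.72, and Noc4l, at 10.05 and 10.11, were the 2 higher members and stayed higher under every scaling.

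Large subunit factors were lower in 11 of 13 members measured (84.6%), with a median of -0.17, against 67.1% of genes in the members' range of signal. By 1.2-fold 4 (30.8%) were lower, against 18.5% of all genes. With the trend removed, 9 were lower and 4 higher, against 50.8% of all genes lower. Of the 4 lower by 1.2-fold as deposited, only Brix1, at -0.46, then stayed past that size. Nip7, Wdr12 and Rrp1b came to -0.21, -0.18 and -0.17. Among all genes 14.2% were lower by 1.2-fold with the trend removed. Brix1, an assembly factor of the early 60S particle, was at 10.51 and 9.96 (transcript cluster 10427718). Its difference of -0.55, or 1.46-fold lower, lay at percentile 3.99 of all genes. Nip7 was at 9.24 and 8.95, a difference of -0.29, and Rrp1b, a nucleolar protein that also binds chromatin, was at 9.55 and 9.29. Rrs1, which helps to load the 5S RNA particle, was at 9.11 and 8.86.

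The PeBoW complex, in which Pes1, Bop1 and Wdr12 act together in large subunit RNA processing, was split between directions. Wdr12 was at 9.78 and 9.49, a difference of -0.29, with its second cluster at -0.33. Pes1 was at 10.12 and 9.98, a difference of -0.13. Bop1 was at 10.74 and 10.96, a difference of 0.21 or 1.16-fold higher. Bop1 was higher and both of its partners lower under every scaling. Pes1 came to -0.040 with the trend removed and -0.035 with quantile normalization. Bop1 alone of the complex lay further from the median of genes of like mean than their robust SD.

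Nop2, a methyltransferase of large subunit RNA, was the only other higher member of this role, at 10.49 and 10.62, a difference of 0.13. Mrto4, which holds the place of the stalk proteins, was at 8.95 and 8.77, a difference of -0.18, and its second cluster was at -0.25. Noc3l was at 9.88 and 9.71, a difference of -0.17, and Gnl3, nucleostemin, was at 10.22 and 10.11, a difference of -0.11. Nop16, at 10.73 and 10.70, and Nmd3, the export adaptor of the 60S particle, at 10.66 and 10.62, were close to 0 and turned sign under 3 scalings.

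**Figure D2:**
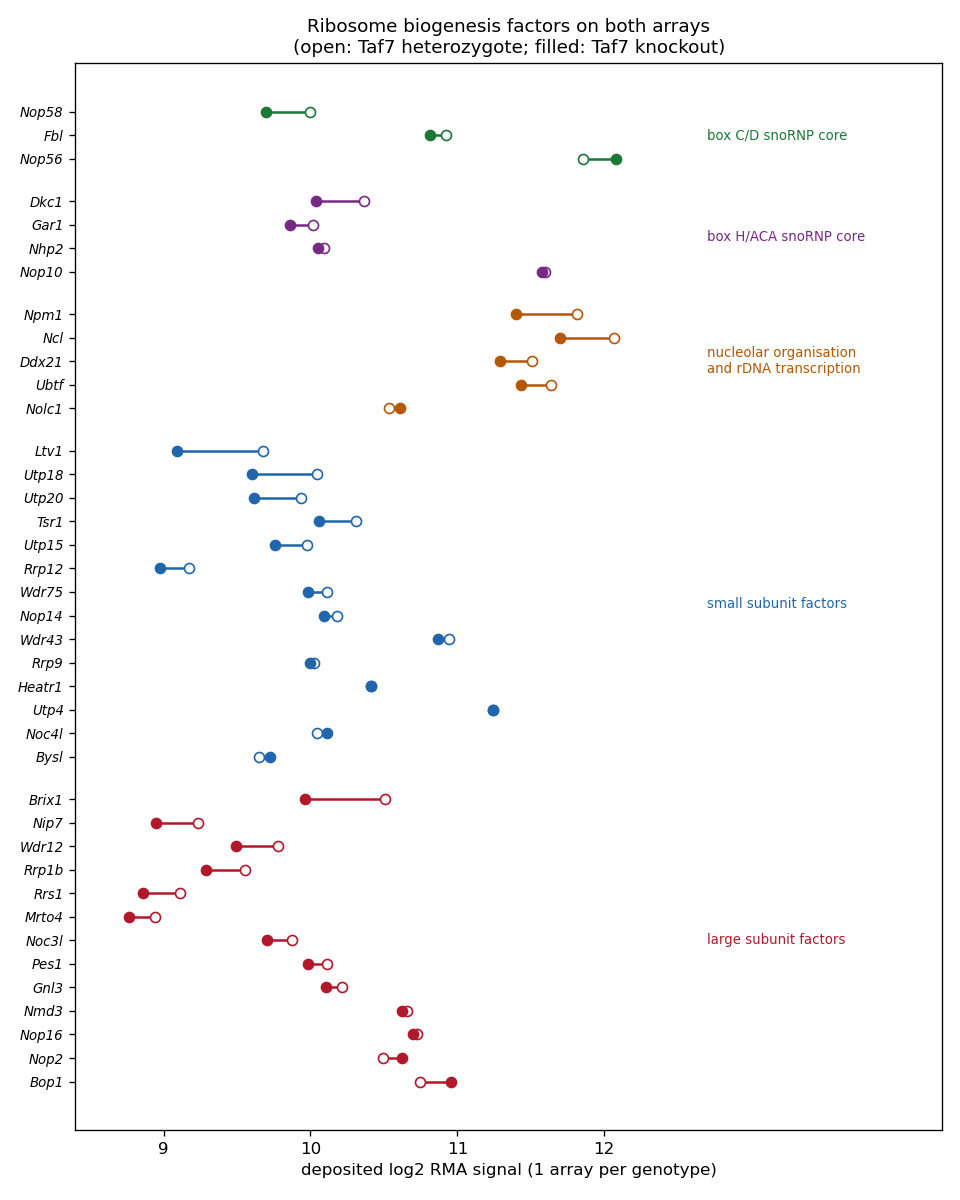
Deposited log2 signal (horizontal axis) of each of the 39 members, grouped by role, with an open circle for the heterozygous array and a filled circle for the knockout array. The longest bars run leftward, at Ltv1, Brix1, Utp18 and Npm1, and the rightward bars belong to Nop56, Bop1, Nop2, Bysl, Nolc1 and Noc4l.

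Other genes of the same pathway were taken from a list of 137, of which 134 were measured. Of these, 96 (71.6%) were lower and 38 higher, and their median was -0.10. Genes within the members' range of mean signal were near this, with 67.1% lower and a median of -0.08. With the trend removed, 76 of the 134 were lower and 58 higher. Above the filter, 25 of 131 (19.1%) were lower by 1.2-fold, a share near the 18.5% of all genes, none was higher, and 3 were lower by 1.5-fold. Those 3 were Naf1, which assembles box H/ACA particles, at 8.89 and 8.28, Dimt1, a methyltransferase of small subunit RNA, at 10.002 and 9.393, and the exosome subunit Exosc9 at 9.74 and 9.15. At the other end were Exosc5 at 0.24, Pdcd11 at 0.18 and Polr1d at 0.17.

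Factors that assemble snoRNPs were lower in 8 of 10, with a median of -0.15, and the exosome and RNase MRP genes in 15 of 21, with a median of -0.16. Among genes in the members' range of signal 67.1% were lower. With the trend removed both counts were unchanged and both medians were -0.11. After Naf1, the lowest of the assembly factors was Pih1d1, at 9.48 and 8.91. Other small subunit factors were lower in 34 of 43, with a median of -0.11, Utp11 standing at -0.51. Other large subunit factors were lower in 31 of 45, with a median of -0.07 that turned to 0.01 when the trend was removed. Gnl3l, a relative of nucleostemin, was the lowest of these at -0.49.

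RNA polymerase I and its factors, which supply the precursor, were divided, 8 lower and 7 higher, with a median of -0.06. Taf1a, Twistnb and Taf1b were the lowest, at -0.42, -0.33 and -0.27, and Polr1d, Taf1c and Polr1e the highest, at 0.17, 0.15 and 0.15. Taf1a, Taf1b and Taf1c all belong to the selectivity factor that recruits the polymerase, so its subunits differed in both directions, as did those of PeBoW.

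Cytosolic ribosomal protein genes, whose products the members assemble, had a lower median than the members on each scale. Of 79 listed, 55 had a cluster of their own, 50 of them lower, with a median of -0.22 against -0.15 for the members. With the trend removed the medians were -0.17 and -0.06. At 1.2-fold 17 of the 55 (30.9%) were lower and none higher. Single values of these genes are uncertain, since many have near-identical pseudogenes. No test of the difference between the lists was possible with 1 array per genotype.

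**Figure D3:**
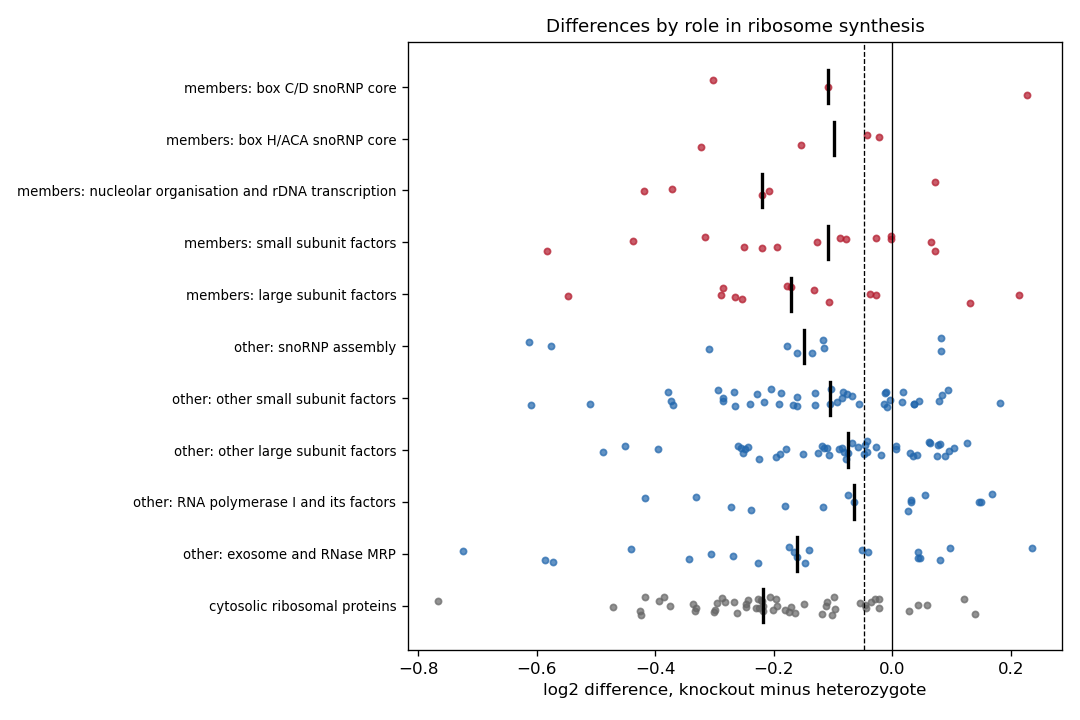
Log2 difference, knockout minus heterozygote (horizontal axis), for each member (red), each other pathway gene (blue) and each cytosolic ribosomal protein gene (grey) by role, with 1 point per gene spread at random in height and a bar at the median. The dashed line is the median of all genes above the filter, -0.05; medians run from -0.06 for RNA polymerase I and its factors to -0.22.

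MYC and its relatives, which control many of these genes, were 6 lower and 6 higher among 12, with a median of 0.01. Myc was at 11.75 and 11.57, a difference of -0.18. Mxd3, one of the factors that compete with MYC for MAX, was at 8.29 and 8.54, and Mlxip, a relative that senses glucose metabolites, was the highest at 11.58 and 12.10. Genes of nucleolar stress and the p53 response, which impaired ribosome assembly can trigger, were mostly higher, 7 of 9, with a median of 0.26. Among all genes above the filter 40.9% were higher. With the trend removed, 7 of the 9 were still higher and the median was 0.19. Their summed linear signal was lower in the knockout, at 22679 and 21120. Phlda3 was at 7.74 and 8.64, Mdm4 at 11.07 and 11.49 and Pmaip1 at 7.69 and 8.08. In the heterozygote, Phlda3 and Pmaip1 lay close to the filter on low values. The lowest of that list was the ribosomal protein gene Rpl5 at -0.34. Next came Ccng1 at -0.09 and Mdm2 at 0.02, which hardly differed. No value was taken for Cdkn1a, Bax or Trp53. Whether a p53 response took place was not tested.

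Regulatory T cell markers were lower in 9 of 10, with a summed linear signal of 17051 and 10044 in the knockout and a median difference of -0.96. Of those markers 7 were lower by 1.5-fold, a size that no member reached. CD4 T cell markers were lower in 8 of 12, with a median difference of -0.14, and 4 of the 12, or 33.3%, were lower by 1.2-fold. On the deposited scale that share and that median lay close to the 28.2% and -0.15 of the members. With the trend removed the median was -0.11 for these markers and -0.06 for the members. With quantile normalization the medians were -0.097 and -0.060. Trat1, an adaptor bound to the T cell receptor complex, was at 11.34 and 10.61, a difference of -0.73. Cd3d, a chain of that complex, differed by -0.50 and the costimulatory receptor Cd28 by -0.42, while Lef1 was at 0.06. The part of these T cell markers in the member differences was not tested. Activation and growth genes were lower in 11 of 19, with a summed signal of 34901 and 32208. Among them Ctla4 was at -1.50 and Cd44, a sorting marker, at -1.35, while Cd69 was at 0.44 and Top2a at 0.26.

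Markers of other cells were mostly weak. Above the filter were 1 of 9 B cell, 1 of 11 myeloid, 3 of 8 natural killer cell, 2 of 4 CD8 T cell, 3 of 7 plasma cell, 2 of 5 platelet and 0 of 3 erythroid markers. Their summed linear signals, heterozygote first, were 1074 and 1186 for B cells, 1547 and 1590 for myeloid cells and 2399 and 1684 for natural killer cells. They were 2056 and 1782 for CD8 T cells, 3799 and 2843 for plasma cells, 3391 and 2512 for platelets and 434 and 499 for erythroid cells. Plasma cell markers were lower in 5 of 7, with a median difference of -0.29, and Igha, an immunoglobulin heavy chain, was at 9.15 and 7.13. Platelet markers were higher in 4 of 5, with a median of 0.22, and Itgb3 was the one lower, at -0.61. Natural killer cell markers were lower in 7 of 8, with a median of -0.07. The 3 of them above the filter were all lower, Eomes at -0.85, Prf1 at -0.50 and Nkg7 at -0.41. B cell markers were higher in 7 of 9 (median 0.23), myeloid markers in 8 of 11 (median 0.14) and erythroid markers in 3 of 3 (median 0.17). With the trend on the mean removed, these medians were 0.081, 0.007 and 0.011, and that of the platelet markers was 0.075. B cell markers were then 4 lower and 5 higher, and myeloid markers 5 lower and 6 higher. The median of the natural killer cell markers was then -0.19. CD8 T cell markers were lower in 2 and higher in 2, with a median of -0.12. Cd8a, which defines CD8 T cells, was below the filter on both arrays, at 7.63 and 7.65. Cd8b1, which encodes the partner chain of Cd8a, was above it, at 10.50 and 10.24, and Crtam was at 8.12 and 7.57. The part of any of these markers in the member differences was not tested.

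Motifs were searched on both strands in the RefSeq promoter table, in windows of 300 bases from 250 before to 50 after each annotated start, for the 34 measured members with an entry. CACGTG was present in 9 of the 34 (26.5%), against 12.1% of genes above the filter and 8.91% of all protein-coding genes in the table. CGGAAG was present in 18 (52.9%), against 37.1% and 23.5%. The TATA box sequence TATAAA was present in 2 (5.88%), against 8.08% and 14.8%. Those matches lie far from the start, 189 bases before it in Dkc1 and 216 bases before it in Pes1. A match is a description of the sequence and not a bound site.

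The E-box stood in members at both ends of the range. Utp18, at -0.44, has it 20 bases before the start, Nop2, at 0.13, 60 bases before and Nmd3, at -0.04, 114 bases before, as the stretches above show. In Ltv1, Pes1, Tsr1, Utp20, Utp4 and Wdr43 it lies after the start. The median difference was -0.13 in the 9 members with the motif and -0.15 in the 25 without. For CGGAAG the medians were -0.16 with and -0.12 without.

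Several members also carry snoRNA genes within their own bounds, from which guide RNAs are released when introns are processed. By the positions in the RefSeq gene table (GRCm38.p6), 7 members held 19 snoRNA genes, and 4 of them had a cluster of their own on the array. Snord82, inside Ncl, was at 12.40 and 12.01, a difference of -0.39 beside -0.37 for Ncl. Snora75, also inside Ncl, was at 8.39 and 8.48. Snord57, inside Nop56, was at 12.53 and 12.32, a difference of -0.21 beside 0.23 for Nop56, and Snord53, inside Wdr43, was at 9.10 and 9.20. Host and snoRNA therefore had like differences in 1 of 4 cases and opposite signs in 3, on the deposited scale and under every scaling tried.

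**Figure D4:**
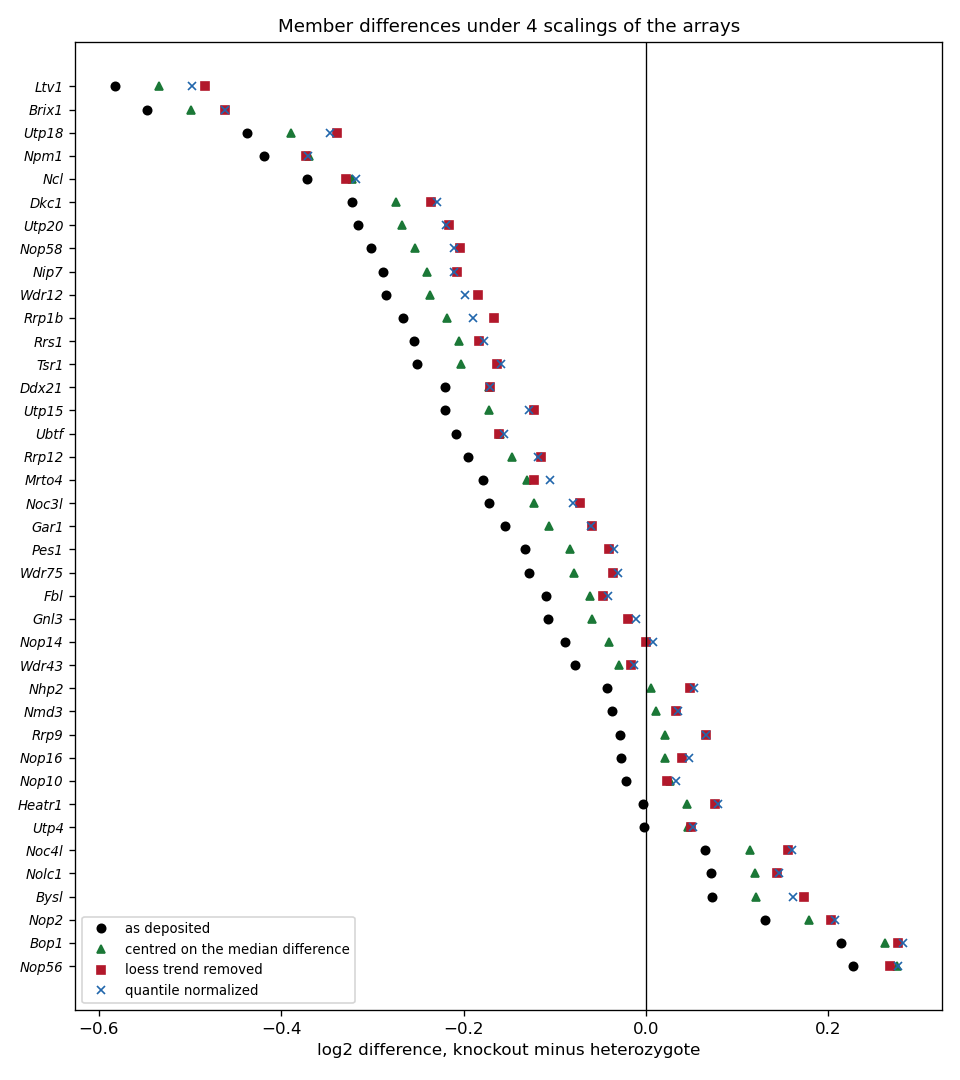
Log2 difference, knockout minus heterozygote (horizontal axis), of each of the 39 members as deposited and after 3 other scalings of the arrays. The order of the members is nearly kept while the points shift rightward, so that 25 or 26 members stay below 0 in place of 33, and Nop56, Bop1, Nop2, Bysl, Nolc1 and Noc4l stay above 0 throughout.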

How the data were processed

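The authors' deposited table holds log2 gene-level signals from RMA in Affymetrix Expression Console 1.1, per the submitters' processing notes and, for the version and the core gene set, the series design text. An exon array is named there, but the probe identifiers belong to the gene-level mouse array; the sources used here name no genome build. Of 35556 rows, 21789 had 1 gene symbol and were used. Genes passed the filter on low values when their mean over the arrays reached the 50th percentile of rows.

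Values were compared without further normalization, with 1 array per genotype and hence no test. Counts at 1.2-fold and 1.5-fold, medians and sums were taken. The alternatives were centring, removal of a loess trend (span 0.3), quantile normalization, averaged clusters, other filters and means. The procedure was checked on simulated data with planted shifts larger than any member difference, so the check does not cover counts at 1.2-fold. Members and gene lists were chosen with earlier results of these data known. All members were named, and from other lists genes among the 3 highest and 3 lowest above the filter, in the list or in a role within it. Cd4, Cd3e, Cd8a and the snoRNAs were named outside that rule. For RNA polymerase I, 3 genes carry the older symbols of the probe table. Versions were Python 3.11.15, statsmodels 0.14.6, pandas 2.3.3, numpy 2.4.6 and matplotlib 3.10.9.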

Additional observations from a re-analysis of the deposited data

How the results depend on the processing

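Leaving out an array was not an option with 1 per genotype. No paired analysis was possible because neither genotype has a second sample. All 156 member values under the 4 scalings moved by less than the robust SD of genes of like mean. That is no measure of stability, since the shifts were small beside that SD. Centring took a median of -0.05 off every member, and the trend over the members ran from -0.10 to -0.04. The SD itself was 0.149 for Nop56, the lowest of the members. Even so, 7 members changed sign with centring and 8 each with trend removal and quantile normalization. Against 6 members higher as deposited there were 13, 14 and 14 under these settings. Against 11 lower by 1.2-fold there were 7, 5 and 5, and against 0 higher by 1.2-fold 1, 2 and 2. The members' median of -0.15 became -0.11, -0.059 and -0.060, that of the other pathway genes -0.056, -0.033 and -0.032 (-0.12 as a mean), and that of ribosomal protein genes -0.17, -0.17 and -0.14. With the trend removed and with quantile normalization, small subunit factors had medians of -0.026 and -0.022 and large subunit factors -0.072 and -0.080. These settings shift the differences of all genes too. The MYC network was at 0.081 with quantile normalization and 0.072 as a mean, and activation and growth genes at -0.24 as a mean. Other filters, averaged clusters, and members with 1 cluster only, a setting chosen after seeing the data, left the members' counts within 1.5 times.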
